A study of Drosophila simulans with 4 samples.

Results

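Accessory gland seminal proteins are secreted by the paired male accessory glands and pass to the female with sperm. In D. melanogaster they are known to raise egg laying, to lower the readiness of mated females to mate again and to act on sperm storage, and several of them evolve quickly between species. The 10 genes described here were taken by FlyBase identifier from a named list of classical accessory gland proteins. The rule that names them uses no measured value, but the members were chosen with earlier results of these data known. Of these 10 genes, 7 had a row among the 15358 genes of the deposited values: Acp26Aa (FBgn0002855), Acp26Ab (FBgn0002856), Acp70A (FBgn0003034), Acp29AB (FBgn0015583), Acp53Ea (FBgn0015584), Acp76A (FBgn0020513) and Acp95EF (FBgn0002863). The other 3, namely Acp36DE, Acp62F and Acp63F, were not analysed here. Sequences of the genes were not used, because neither the identifiers nor the symbols matched the reference table of D. simulans.

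The flies were D. simulans males, the first-generation sons of wild-caught females from Gotheron in the Rhône Valley (France) and from Mayotte in the Comoros archipelago. Each population gave 1 library from males reared on cornmeal and 1 from males reared on a local fruit, called the natural medium. This fruit was apple for the Gotheron males and banana for the Mayotte males. A library pooled the whole-body RNA of 100 males, each from another female, and the sample labels give 7 days of growth where the methods give a shorter aging. According to the methods, bacteria had contaminated the banana medium. The medium therefore distinguished the replicates of a population, each combination of population and medium had 1 library, and food, bacteria and library cannot be told apart within a population.

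Reads came from the 3′ ends of transcripts, so a count does not grow with gene length, and levels of different genes are set side by side here as normalised counts on that scale. The deposited normalised counts are reads multiplied by 1 factor per library, which makes all totals equal. Dividing by this factor, taken as the smallest nonzero value, gave between 9829895 and 10365609 reads per library on the listed genes. Read numbers here are recovered in this way. The paper gives a larger number of mapped reads per replicate, and the difference was not examined. At this depth 1 read was worth between 0.970 and 1.02 normalised counts. Reads were mapped first to D. melanogaster and then to D. simulans, so the level of a gene that differs between the species can depend on how well its 3′ end mapped, which was not tested. In whole-body RNA, a smaller gland and less RNA per gland cell cannot be told apart. Markers of other tissues were not examined, since no table used here pairs their identifiers with names.

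The 7 genes ranged in mean level from 79.4 to 116695 normalised counts. Acp70A, which encodes sex peptide, the protein that in D. melanogaster makes mated females lay eggs and refuse males, had the highest mean over the 4 libraries. It ranked 2 among all genes in the Gotheron cornmeal library and in both Mayotte libraries, and 5 in the Gotheron natural library. Acp95EF, a small secreted peptide of the gland, followed with a mean of 42709 and ranks between 15 and 17, except in the Gotheron natural library, where it ranked 76. The other genes lay much lower. Acp76A, a member of the serpin family of protease inhibitors, had a mean of 5225, and Acp53Ea, another small secreted peptide, had 3588. The means were 1228 for Acp26Ab and 829 for its neighbour Acp26Aa. Acp26Aa encodes ovulin, which stimulates ovulation in D. melanogaster, and Acp26Ab encodes a small peptide. The lowest gene was Acp29AB, a lectin-like protein with a part in sperm storage in D. melanogaster, with a mean of 79.4. The order of the 7 genes was the same in each of the 4 libraries. Between neighbours in this order, Acp76A and Acp53Ea lay within their spread of each other in Mayotte, with 4852 ± 743 and 4208 ± 458 (SD, n = 2), but not in Gotheron, with 5598 ± 849 and 2967 ± 1352 (SD, n = 2). Acp26Ab and Acp26Aa lay within their spread of each other in Gotheron, with 1103 ± 389 and 677 ± 262 (SD, n = 2). Both genes of a pair were measured in the same libraries, and these SDs include differences between libraries that the genes share. Within a library, Acp26Aa was 0.625 times Acp26Ab in Gotheron cornmeal and 0.593 times in Gotheron natural.

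**Figure D1:**
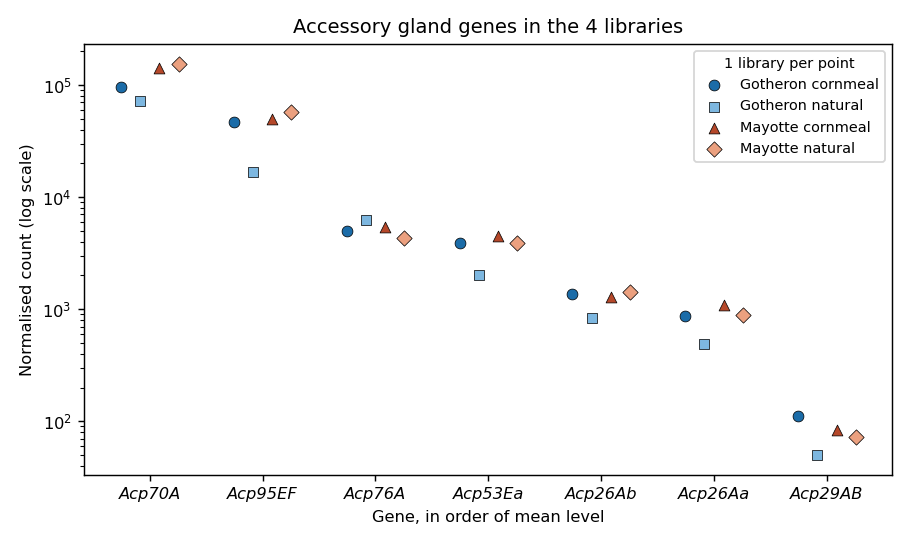
Normalised counts (vertical axis, log scale) of the 7 listed genes, in order of mean level, with 1 point for each of the 4 libraries. The Gotheron natural library (pale squares) is the lowest point for every gene but Acp76A, where it is the highest at 6198.

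Together the 7 genes took 1.54% of the library total in Gotheron cornmeal and 0.981% in Gotheron natural. In Mayotte they took 2.04% on cornmeal and 2.22% on the natural medium. Both Mayotte libraries were thus above both Gotheron libraries. The mean share was 1.26% ± 0.392 in Gotheron against 2.13% ± 0.130 in Mayotte (SD, n = 2 each). These sums rested on 98992 to 230373 reads, so counting error was small beside the difference between the Gotheron replicates. Acp70A alone made up 62.1% of the sum in Gotheron cornmeal, 73.3% in Gotheron natural, 69.8% in Mayotte cornmeal and 69.6% in Mayotte natural. The share of Acp95EF in the sum was 30.6% in Gotheron cornmeal and 17.0% in Gotheron natural, and it was 24.1% and 25.7% in Mayotte. Without these 2 genes, the remaining 5 took between 0.0953% and 0.123% of a library, with the lowest value again in Gotheron natural and the highest in Mayotte cornmeal. For these 5 genes together the populations overlapped.

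**Figure D2:**
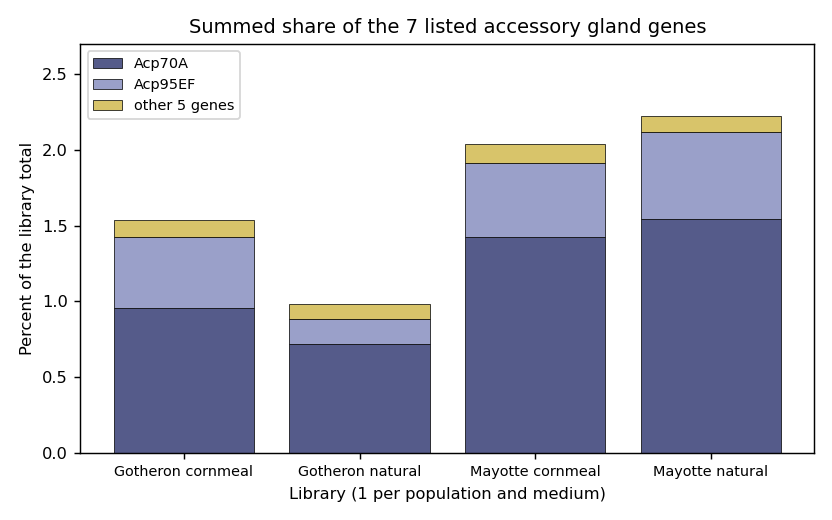
Percent of the library total (vertical axis) taken by the 7 listed genes in each of the 4 libraries, stacked as Acp70A, Acp95EF and the other 5 genes. The bars reach 1.54% and 0.981% in Gotheron and 2.04% and 2.22% in Mayotte.

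The most regular feature of these genes was the low level in 1 library. The Gotheron natural library had the lowest value of the 4 for 6 of the 7 genes, where it was lowest for 21.5% of the 12508 genes whose mean normalised count reached 5. The share of all genes was 28.2% after TMM scaling, which levels the libraries on the bulk of the genes, and the count of members stayed at 6. The median of the Gotheron natural value over the mean of the other 3 libraries was 0.550 for the 7 genes and 1.04 for all genes. This library is a single pool of males, and no second library from the same population and food was available to check it.

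Acp95EF departed most. Its normalised count was 47163 in Gotheron cornmeal and 16797 in Gotheron natural, and in Mayotte 49498 on cornmeal and 57378 on the natural medium. The other libraries thus lay close together and their mean was 3.06 times the Gotheron natural value. Only 1.01% of all genes had a lower value of Gotheron natural relative to the other libraries. Acp53Ea had 3924 in Gotheron cornmeal, 2011 in Gotheron natural, 4531 in Mayotte cornmeal and 3884 in Mayotte natural. The mean of the other 3 libraries was 2.04 times the Gotheron natural value, and the Gotheron cornmeal value lay between the 2 Mayotte values.

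The neighbours Acp26Aa and Acp26Ab, which lie next to each other in the D. melanogaster genome, were low in the same library. Acp26Aa had 862 in Gotheron cornmeal, 491 in Gotheron natural, 1082 in Mayotte cornmeal and 882 in Mayotte natural. Acp26Ab had 1378, 828, 1282 and 1425 in the same order of libraries. For Acp26Aa both Mayotte values were above both Gotheron values, while for Acp26Ab the Gotheron cornmeal value fell between the Mayotte values. The ratio of Acp26Aa to Acp26Ab, which does not depend on the scaling of a library, was 0.625 in Gotheron cornmeal, 0.593 in Gotheron natural and 0.619 in Mayotte natural, but 0.844 in Mayotte cornmeal. How reads near the border of these genes were assigned is not stated.

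Acp70A had 95907 in Gotheron cornmeal and 72285 in Gotheron natural, against 143146 in Mayotte cornmeal and 155443 in Mayotte natural. Here the Gotheron cornmeal library also lay below both Mayotte libraries, beyond the gap between these. Acp29AB had 112 in Gotheron cornmeal, 49.8 in Gotheron natural, 82.8 in Mayotte cornmeal and 72.7 in Mayotte natural. These rested on 111, 50, 81 and 75 reads, and the groups overlapped.

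Acp76A went the other way. Its normalised count was 4998 in Gotheron cornmeal, 6198 in Gotheron natural, 5377 in Mayotte cornmeal and 4326 in Mayotte natural. The Gotheron natural library, lowest for the other 6 genes, was the highest for this serpin, and it was highest for 32.2% of all genes. Acp76A also varied least, with a highest value 1.43 times the lowest, against 1.72 to 3.42 times for the other 6. Relative to Acp53Ea in the same library, Acp76A was 3.08 times as high in Gotheron natural, and 1.27, 1.19 and 1.11 times as high in Gotheron cornmeal, Mayotte cornmeal and Mayotte natural. The listed genes therefore did not move in fixed proportion.

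**Figure D3:**
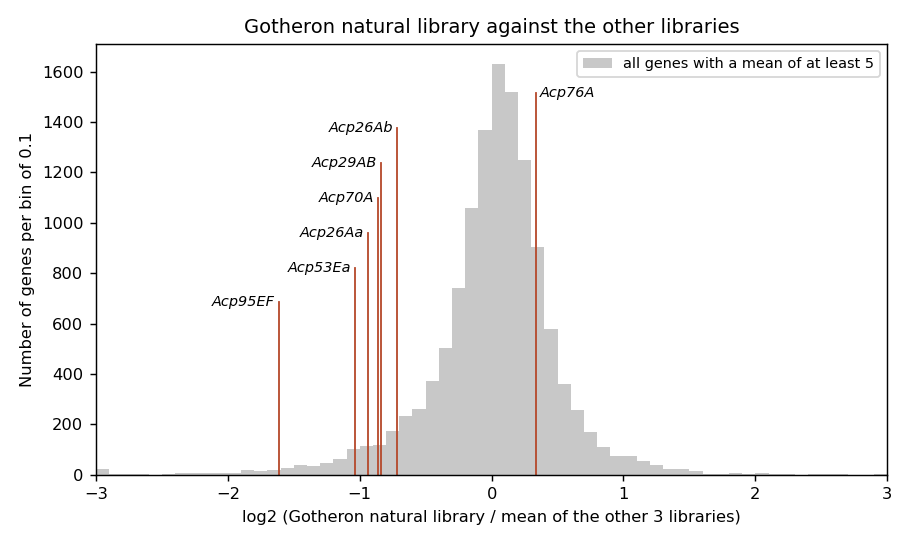
Histogram of log2 of the Gotheron natural value over the mean of the other 3 libraries (horizontal axis) for the 12508 genes whose mean reached 5, in bins of 0.1, with genes beyond the axis counted in the outermost bins. Vertical lines mark the 7 listed genes, whose line heights carry no value, with 6 in the left part of the distribution and Acp76A on the right.

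Population differences were tested by a rebuilt form of the study's procedure in 2 steps, an overdispersed Poisson model with a Wald test in place of the likelihood ratio test named in the methods. In this model genes of similar level share 1 dispersion from a Loess curve, and a call requires both replicates of a population to exceed both replicates of the other one. The immunity genes that the study left out were kept, as they could not be identified here. The paper reports reproduction-related genes, most of them for proteins of the seminal fluid, as higher in Mayotte. Whether its list holds any of the 7 genes was not examined here. With the Wald test none of the 7 genes was called differentially expressed between Gotheron and Mayotte at a Benjamini-Hochberg adjusted p of 0.05, where the procedure called 5.22% of all genes (2.1% higher in Mayotte). With the likelihood ratio test 1 of the 7 was called, namely Acp26Aa, where it called 956 of all 15358 genes. At an unadjusted p under 0.05 of the Wald test there were 4 of the 7 and 16.5% of all genes. With limma, which takes the spread within each population, 0 of the 7 passed, and 1 did at an unadjusted p under 0.05, against 1.09% and 14% of all genes. The mean was higher in Mayotte for 5 of the 7 genes and for 33.4% of all genes. Both Mayotte libraries lay above both Gotheron libraries for 3 of the 7, namely Acp26Aa, Acp70A and Acp95EF, and for 12.8% of all genes. Without the Gotheron natural library these shares were 3 of 7 and 24.8%. The median log2 difference of Mayotte minus Gotheron in limma was 0.58 for the 7 genes and -0.12 for all genes, so in the deposited scaling the bulk of the genes was shifted slightly towards Gotheron. Relative to that shift the limma difference was 1.04 for Acp95EF, 0.96 for Acp70A, 0.71 for Acp26Aa, 0.70 for Acp53Ea, 0.46 for Acp26Ab, 0.17 for Acp29AB and -0.085 for Acp76A.

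The nearest to the threshold was Acp26Aa, with 677 ± 262 in Gotheron against 982 ± 142 in Mayotte (SD, n = 2 each). Its log2 ratio of Mayotte over Gotheron was 0.54 (standard error 0.18, adjusted p = 0.058 from the 2-step procedure and 0.37 from limma). The likelihood ratio test of the 2-step procedure called it (adjusted p = 0.048), as did the Wald test with dispersion taken within populations (adjusted p = 0.0014). In simulated data the likelihood ratio form, like the main Wald form, made more false calls than the set rate allows. The form with dispersion within populations was not run on simulated data. In the real data it called 1859 genes, against 801 for the main form. After TMM scaling the log2 ratio was 0.67 and the adjusted p of the 2-step procedure was 0.0023. Of 15 alternatives, some of which left out a library, 8 called the gene. With all 4 libraries kept, the adjusted p of the 2-step procedure ran from 0.0014 to 0.073. Acp53Ea had 2967 ± 1352 in Gotheron and 4208 ± 458 in Mayotte, a log2 ratio of 0.50 (standard error 0.19, adjusted p = 0.11 from the 2-step procedure). TMM scaling gave an adjusted p of 0.012 for this gene in the 2-step procedure, in a range of 0.0061 to 0.11 with all 4 libraries kept. The low end of this range came with dispersion within populations. It was not a call, because the populations overlapped for this gene in the deposited scaling. TMM scaling put the Mayotte libraries above the Gotheron libraries for 5 of the 7 genes, against 21.9% of all genes, and called 5.69% of all genes.

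Acp70A had 84096 ± 16703 in Gotheron against 149294 ± 8695 in Mayotte (SD, n = 2 each), a ratio of 1.78. The log2 ratio was 0.83 with a standard error of 0.41 (adjusted p = 0.27 from the 2-step procedure and 0.35 from limma). Few genes are as abundant as Acp70A, and the dispersion of the Loess curve at its level was 8538. On a quadratic curve it was 1827 and the gene was called, with an adjusted p of 0.00054. This was the lowest of a range up to 0.28 over the alternatives of the 2-step procedure that kept all 4 libraries. Acp95EF had 31980 ± 21472 in Gotheron and 53438 ± 5572 in Mayotte, a log2 ratio of 0.74 (standard error 0.30, adjusted p = 0.15 from the 2-step procedure). The quadratic curve also called this gene (adjusted p = 0.0026 from the 2-step procedure, in a range of 0.0026 to 0.15 with all 4 libraries kept). Acp26Ab had a log2 ratio of 0.30 (standard error 0.18), Acp76A of -0.21 (standard error 0.20) and Acp29AB of -0.060 (standard error 0.24), with adjusted p of 0.43, 0.69 and 1 from the 2-step procedure. The limma difference of Acp29AB had the opposite sign, at 0.050.

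Both Gotheron libraries weighed on these values. With Gotheron cornmeal left out, so that Gotheron natural alone stood for the population, limma called 4 of the 7 genes (Acp26Aa, Acp26Ab, Acp53Ea and Acp95EF) and 8.7% of all genes, and the 2-step procedure called the same 4 and 8.67% of all genes. With Gotheron natural left out, Gotheron cornmeal alone stood for the population, and the differences of these 4 genes were smaller. The 4 calls therefore rest on the Gotheron natural library. With 1 library left in a population, limma took the spread from the other population and from genes of similar level, so the lone library was assumed to vary likewise, and the 2-step procedure took it around 1 mean of the 3 libraries. Without Gotheron cornmeal, the limma log2 difference was 0.99 for Acp26Aa, 1.06 for Acp53Ea, 1.67 for Acp95EF and 0.71 for Acp26Ab. Without Gotheron natural, it was 0.18 for Acp26Aa, 0.096 for Acp53Ea, 0.18 for Acp95EF and -0.028 for Acp26Ab. It was 0.64 for Acp70A (adjusted p = 0.51 from limma). On the reads of the same 3 libraries DESeq2 called Acp70A (adjusted p = 0.025) and edgeR did not (adjusted p = 0.21). Without the Mayotte natural library the 2-step procedure called Acp26Aa (adjusted p = 0.013).

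The same contrast can be read within each medium. Between the cornmeal libraries, the ratio of Mayotte over Gotheron was 1.49 for Acp70A, 1.26 for Acp26Aa, 1.15 for Acp53Ea, 1.08 for Acp76A, 1.05 for Acp95EF, 0.931 for Acp26Ab and 0.737 for Acp29AB. Between the natural libraries it was 3.42 for Acp95EF, 2.15 for Acp70A, 1.93 for Acp53Ea, 1.79 for Acp26Aa, 1.72 for Acp26Ab, 1.46 for Acp29AB and 0.698 for Acp76A. For 6 of the 7 genes the ratio was thus larger on the natural media, a count that was not made over all genes. They are the same 6 genes that had their lowest value in Gotheron natural. That library divides the natural ratio, so the count restates its low values and is no separate result. For Acp29AB, the gene with the fewest reads, the 95% Clopper-Pearson interval ran from 0.546 to 0.990 on cornmeal and from 1.01 to 2.13 on the natural media. For Acp26Ab on cornmeal the interval, 0.861 to 1.01, included 1. These intervals cover counting error only and say nothing of the spread between pools of flies.

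**Figure D4:**
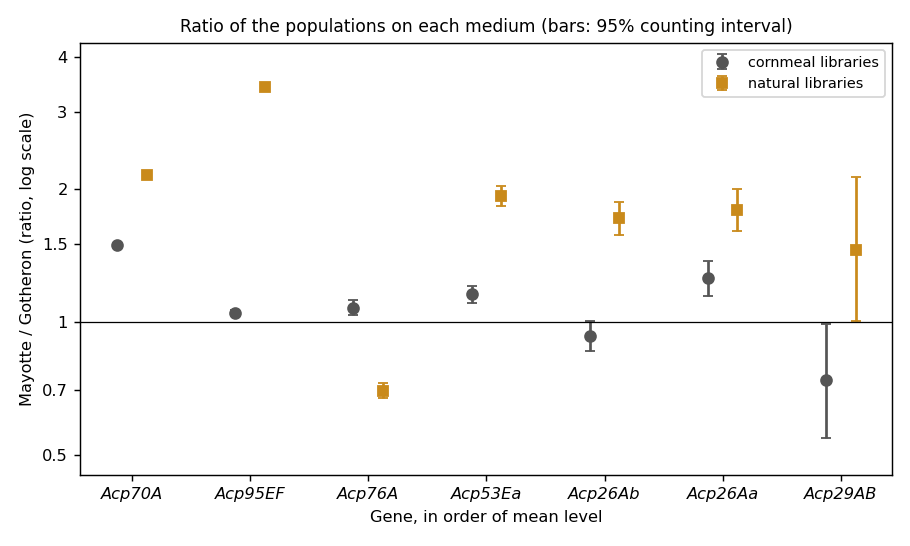
Ratio of Mayotte over Gotheron (vertical axis, log scale) for the 7 listed genes, between the cornmeal libraries (circles) and between the natural libraries (squares), with 95% counting intervals. The squares lie above the circles for every gene but Acp76A, and the widest gap is that of Acp95EF, at 1.05 and 3.42.

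Food was compared as natural against cornmeal with population as a term in limma. None of the 7 genes passed an adjusted p of 0.05, where 0.016% of all genes did, and 3 of the 7 had an unadjusted p under 0.05 (Acp26Aa, Acp29AB and Acp53Ea), against 6.89% of all genes. These 3 genes had lower values on the natural medium in both populations. The log2 difference was -0.55 for Acp26Aa (standard error 0.18, adjusted p = 0.58 from limma), -0.67 for Acp29AB (standard error 0.28, adjusted p = 0.69) and -0.59 for Acp53Ea (standard error 0.22, adjusted p = 0.64). The natural over cornmeal ratio was 0.570, 0.443 and 0.513 in Gotheron for these genes, and 0.815, 0.878 and 0.857 in Mayotte. For Acp29AB in Mayotte the 95% counting interval, 0.633 to 1.22, included 1, so its lower value there was within counting error. The median log2 change from cornmeal to natural was -0.81 for the 7 genes in Gotheron and -0.19 in Mayotte, against -0.023 and -0.030 for all genes. In 4 of the 7 genes the change had opposite signs in the populations, as it had for 48% of all genes. Acp70A and Acp95EF stood at 0.754 and 0.356 of their cornmeal value on apple in Gotheron and at 1.09 and 1.16 times it on banana in Mayotte. The standard errors of their medium difference in limma were 0.57 and 0.46 on the log2 scale.

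Among the 7556 other genes with a mean of at least 100, the profile nearest to the mean profile of the 7 listed genes was that of FBgn0028563, at a Euclidean distance of 0.057 over the 4 centred log2 values. The next was FBgn0011670, at 0.068, where the median gene lay at 0.83. FBgn0011670 had 7378 normalised counts in Gotheron cornmeal, 4218 in Gotheron natural, 7871 in Mayotte cornmeal and 7102 in Mayotte natural. FBgn0028563 had 206, 127, 218 and 212 in the same order. The listed genes themselves lay from 0.22 (Acp26Ab) to 1.17 (Acp76A) from the mean profile of the other listed genes, with Acp95EF at 0.86. With only 4 libraries, likeness of profile is a weak description.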

How the data were processed

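Whole-body RNA of D. simulans males was sequenced by 3′ digital gene expression in 4 libraries, 2 from Gotheron and 2 from Mayotte, with cornmeal as replicate 1 and natural medium as replicate 2. The authors trimmed reads with seqclean and used ELAND to map 32-mers, allowing 2 mismatches, to D. melanogaster and then D. simulans, and moved counts to the D. melanogaster ortholog. Builds and software versions: not given in the sources used here. What the authors deposited is a linear signal, read counts times 1 factor per library, and 100% of them were whole reads within 0.01 after division by the smallest nonzero value of the column. Columns were matched to samples by the codes of the sample labels.

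Genes were named by the symbols paired with the identifiers in the list of members. Members and lists were chosen with earlier results of these data known. Lists of other tissue markers were not used, as 0 identifiers matched the table of assembly Prin_Dsim_3.1. The immunity genes the study left out could not be told apart and were kept in the tests. All 7 listed members are named, with the 2 genes of nearest profile. Tests were fitted on all genes in R 4.3.3. The 2-step procedure used a Pearson dispersion around 1 mean, Loess smoothing (span 0.75, degree 2) and a Wald test in place of the likelihood ratio test of the methods, which was an alternative. Limma 3.58.1 with a trended prior was run on log2(normalised count + 1), leaving out genes whose mean was under 5, and this scale understates changes of low genes. P-values were adjusted by Benjamini-Hochberg and are two-sided. With 2 libraries against 2, an exact permutation test cannot go below 0.33, and p-values rest on spread shared across genes. Nothing in the sources marks a second library of the same population and food, so the spread between replicates includes the food. Alternatives were other scalings, dispersions, curves, filters, pseudocounts and left-out libraries, and edgeR 4.0.16 and DESeq2 1.42.0 on recovered reads of 3 libraries, without Gotheron natural, whose factor is too near 1 for its reads to be accepted. Counting intervals do use its reads. The 2-step population test in both forms and both limma tests were tested on simulated data, and the other tests were not.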

Additional observations from a re-analysis of the deposited data

Results flagged for a closer look

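In 4 of the 7 genes the change from cornmeal to natural medium had opposite signs in the 2 populations, which was also so for 48% of all genes with a mean of at least 5. The log2 change in Mayotte minus that in Gotheron was 1.70 for Acp95EF, 0.89 for Acp26Ab, 0.53 for Acp70A and -0.62 for Acp76A. The first 3 were lower on apple in Gotheron and higher on banana in Mayotte, and Acp76A was higher on apple and lower on banana. Each of these changes compares 1 library with 1 library, so the difference between the populations was not tested.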

How the results depend on the processing

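The count of members called between populations by the 2-step procedure was 0 of 7. It was 1 with the likelihood ratio test, 2 with the quadratic dispersion curve, 2 with dispersion within populations, 2 under TMM, 2 under median-of-ratios scaling, 2 with equal totals without the 10 most abundant genes and 1 with DESeq2. It was 1 with equal totals without the members, an alternative added after seeing the data. With 1 library left out it ranged from 0 to 4. Over all genes this procedure called 801 (322 higher in Mayotte), and 1859 with dispersion within populations, 516 with edgeR, 226 with DESeq2 and 601 to 1331 with 1 library left out. Under TMM scaling 518 of 874 were higher in Mayotte, and under median-of-ratios scaling 507 of 872. The likelihood ratio test called 956 genes and the quadratic curve 813. Equal totals without the 10 most abundant genes gave 822 and equal totals without the members 804. Limma called 136 genes, 34 with no filter on low values, 13 with no trend in the prior variance and 61 to 1086 with 1 library left out, where 0 to 4 members were called. With the medium as a block it called 314 genes and 0 members. For the medium limma called 2 genes, 8 under TMM, 0 with no filter or with a mean of at least 20 (696 and 702 at an unadjusted p under 0.05), and the 2-step procedure split by medium called 111, with 0 members in each. Signs turned for Acp29AB, Acp26Ab and Acp76A in the population tests, and for Acp76A in the medium test with all libraries kept. The log2 ratio of Acp29AB was 0.070 under TMM and 0.063 under median-of-ratios scaling, and with 1 library left out it ranged from -0.53 to 0.64. That of Acp76A was 0.090 with edgeR and 0.077 with DESeq2. All edgeR and DESeq2 fits here left out Gotheron natural, the highest library for Acp76A, and scaled the reads otherwise, so they do not show an effect of the tool alone. Leaving out 1 library gave Acp26Ab -0.026 to 0.71, and in limma -0.028 to 0.71, and Acp29AB in limma -0.53 to 0.63. The medium difference of Acp76A was 0.017 under TMM, 0.016 under median-of-ratios scaling and 0.021 with the 2-step procedure. The causes were not tested. Set against a total without the 10 most abundant genes, the sum of the 7 genes was on average 2.41% in Mayotte and 1.37% in Gotheron. Acp70A is among those 10, so it is in the sum but not in that total. Without a library of a population, the medium difference is the change in the other population and has no test. Its sign differed between the populations for Acp26Ab, Acp70A, Acp76A and Acp95EF. Acp29AB, with 50 to 111 reads, had the widest counting error.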
